A study of Mus musculus with 12 samples.

Results

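Expression of 10 genes that are used to tell kinds of spinal motoneuron apart was followed in mice without Gdap1: Rbfox3 and Spp1 for alpha motoneurons, Esrrg, Wnt7a and Htr1d for gamma motoneurons, Chodl, Mmp9, Calca and Calcb for fast motoneurons, and Esrrb for slow ones. Measurements were chosen by name alone, taking each probe set to which the annotation of the array platform gave exactly 1 symbol that was one of these genes. 8 of the 10 genes had such a probe set, with 19 probe sets between them, against 45037 probe sets tested and 18193 genes named by a single symbol on the whole array. Spp1 and Calca had no probe set named in that way and were not analysed here.

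The groups were Gdap1 knockout motoneurons, wild type motoneurons, Gdap1 knockout sciatic nerve and wild type sciatic nerve, with 3 Affymetrix arrays in each. Exon 5 of Gdap1 is deleted in the knockout. The protein sits in the mitochondrial outer membrane, and its mutation causes a form of Charcot-Marie-Tooth neuropathy. All mice were untreated and 2 months old, motoneurons were cut out by laser dissection, and nerve was lysed whole. The labels call the arrays biological replicates, and the design text says that RNA was purified from 5 mice and that the 3 samples of each group were picked for RNA amount and quality. It does not say whether the 5 are per group or in all, nor which arrays share a mouse, so the p-values measure the spread between arrays that may not all come from different animals. The Gdap1 probe sets lie in exons 4 and 6, outside the deletion, so they check nothing about the genotype labels. The question addressed was whether transcripts differ between animals with and without Gdap1, and here whether the mix of motoneuron subtypes that the captured cells represent differed.

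Alpha motoneurons drive the fibres that make force, and gamma motoneurons drive the small fibres inside muscle spindles. Among alpha motoneurons, fast ones serve fast-fatigable and slow ones serve fatigue-resistant motor units, and in mouse models of amyotrophic lateral sclerosis the fast ones degenerate first. Rbfox3 encodes NeuN, an RNA-binding protein that mouse alpha motoneurons hold at a high level and gamma motoneurons at a low one. Mmp9, a secreted metalloproteinase, marks the fast cells and contributes to their vulnerability in such mice.

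Sequences upstream of the fast marker Chodl and the slow marker Esrrb are shown. They were chosen because these genes stand for the opposite ends of the fast to slow range. The brightest probe set of each was also read far higher in motoneurons than in nerve, but the other Esrrb probe sets were not. Each window holds the 250 bases before an annotated transcript start, from RefSeq in build GRCm38.p6. Capitals mark TAAT on either strand (TAAT or ATTA), the core bound by many homeodomain proteins, among them the regulators of motoneuron identity. The windows lie at chr16:78930698-78930947 for Chodl and at chr12:86360867-86361116 and chr12:86421394-86421643 for Esrrb, all on the plus strand.
Chodl: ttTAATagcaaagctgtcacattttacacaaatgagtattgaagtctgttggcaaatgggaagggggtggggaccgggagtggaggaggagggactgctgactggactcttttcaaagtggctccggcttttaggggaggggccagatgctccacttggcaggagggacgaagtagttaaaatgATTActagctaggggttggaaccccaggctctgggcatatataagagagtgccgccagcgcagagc
Esrrb, upstream start: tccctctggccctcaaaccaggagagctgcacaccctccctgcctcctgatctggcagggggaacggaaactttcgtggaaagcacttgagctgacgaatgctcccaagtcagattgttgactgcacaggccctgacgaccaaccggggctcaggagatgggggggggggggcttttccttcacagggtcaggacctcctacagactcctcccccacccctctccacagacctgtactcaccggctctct
Esrrb, downstream start: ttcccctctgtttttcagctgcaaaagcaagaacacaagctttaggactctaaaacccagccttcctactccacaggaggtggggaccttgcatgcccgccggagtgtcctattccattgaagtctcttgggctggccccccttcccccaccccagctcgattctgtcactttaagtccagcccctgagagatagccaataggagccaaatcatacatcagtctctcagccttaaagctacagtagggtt
The Chodl window held 2 matches and both Esrrb windows held 0. The table had entries for 8 of the 10 genes, all but Mmp9 and Calcb, and 9 of their 14 windows held at least 1 match, beside 54.9% of all 32851 windows of this length. A match is only a string of letters, and neither its presence nor its absence says anything about binding.

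Values are log2 expression per probe set as deposited. Array medians lay between 6.53 and 6.59 in motoneurons and between 8.29 and 8.40 in nerve, so the tissues appear to have been scaled separately and a level in one is not directly comparable with a level in the other. For that reason the position of a probe set within its own array, as a percentile of all probe sets, is given beside the log2 value, although it also depends on how bright the probe set is. The sex-linked transcript Xist read 5.18 in knockout motoneuron replicate 2 and between 9.37 and 10.38 on the other motoneuron arrays, while in nerve it read over 12 in knockout replicate 3 and wild type replicate 2, at 12.54 and 12.49, and at most 6.06 on the others. By this transcript the genotypes differed by 1 array in motoneurons and were alike in nerve, with 1 high array in each. The tissues were less alike. In wild type every motoneuron array was high against 1 nerve array, and in knockout all but 1 motoneuron array against 1 nerve array. The part of sex in the tissue differences was not tested. Replicate 1 of each genotype was high in motoneurons and low in nerve. Nothing in the labels ties same-numbered samples of different groups to 1 mouse.

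The captured cells carried motoneuron markers. Of 8 fixed markers, 7 were higher in motoneurons than in nerve in both genotypes by limma at an adjusted p under 0.05. Of all probe sets, 15.2% were called higher in knockout and 14.3% in wild type. Among the 7 was Slc18a3, the vesicular acetylcholine transporter, at 12.44 ± 0.23 in knockout and 12.21 ± 0.41 in wild type motoneurons (SD, n = 3 each). Nefh, the heavy neurofilament subunit, was another, at 14.56 ± 0.076 and 14.63 ± 0.020 in the same groups. The probe set of Chat, the enzyme that makes acetylcholine, was dim throughout, at 4.58 ± 0.39 in knockout and 4.83 ± 0.46 in wild type motoneurons. On the deposited scale it was called lower in knockout motoneurons than in knockout nerve, where it read 5.17 ± 0.20. Quantile normalization and centring called all 8 markers higher in motoneurons in both genotypes. The capture also held RNA of neighbouring cells. The mean over 7 oligodendrocyte genes lay between 10.91 and 11.43 on knockout and between 11.10 and 11.70 on wild type motoneuron arrays, and that of 6 spinal interneuron genes between 10.23 and 11.12 on knockout and between 10.18 and 11.08 on wild type arrays. All 7 oligodendrocyte genes read lower in knockout motoneurons. The mean over 8 endothelial and mural cell genes lay between 6.67 and 6.89 on knockout and between 7.06 and 7.20 on wild type motoneuron arrays, without overlap and with all 8 genes lower in knockout. That of 5 sensory neuron genes lay between 5.85 and 6.11 on knockout and between 5.60 and 5.81 on wild type motoneuron arrays, also without overlap. The means of all the other lists overlapped between the motoneuron genotypes. Of all single probe sets, 22.5% did not overlap in this comparison. The part of these other cells in the members' values was not tested. None of the 128 measured genes in the 13 fixed lists differed by genotype in motoneurons or in nerve after adjustment. Fewer cells of a kind and less RNA per cell cannot be told apart in such samples.

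**Figure D1:**
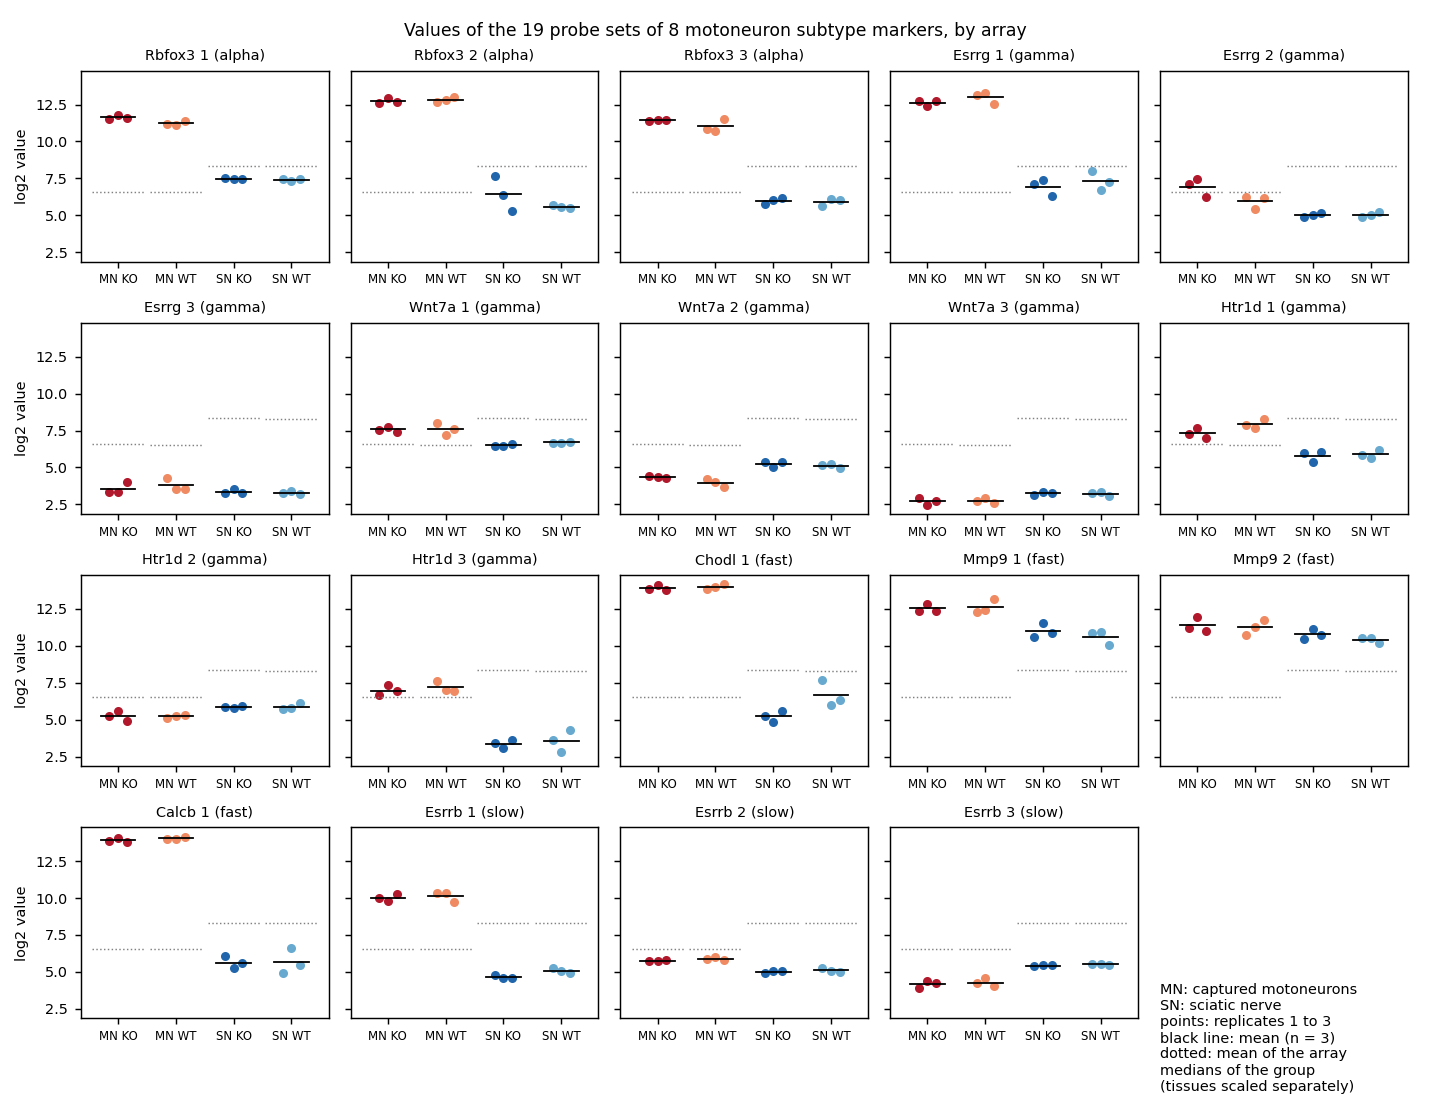
Log2 value of each of the 19 probe sets (vertical axis) on every array, in knockout motoneurons (MN KO), wild type motoneurons (MN WT), knockout nerve (SN KO) and wild type nerve (SN WT). Points are replicates 1 to 3, black lines group means and dotted lines the mean array median of the group. Calcb and Chodl lie far above the dotted line in both motoneuron groups and below it in both nerve groups, and the Mmp9 probe sets lie above it in all 4 groups.

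Rbfox3, the alpha marker, was read by 3 probe sets on chromosome 11, and all 3 were far higher in motoneurons than in nerve. The first read 11.52, 11.76 and 11.61 in knockout motoneurons and 11.20, 11.11 and 11.40 in wild type motoneurons, so the genotypes did not overlap. The second read 12.59, 12.92 and 12.70 in knockout and 12.69, 12.79 and 13.04 in wild type motoneurons, with overlap. The third read 11.37, 11.45 and 11.46 in knockout and 10.81, 10.72 and 11.53 in wild type motoneurons. In this last probe set wild type replicate 3 lay above all knockout values and the other two below them. In nerve the first probe set stayed between 7.43 and 7.54 in knockout and between 7.35 and 7.46 in wild type. The second was uneven there, at 7.68, 6.38 and 5.26 in knockout nerve, against 5.66, 5.53 and 5.48 in wild type nerve. The 3 probe sets differed between motoneurons and nerve by 4.15, 6.29 and 5.44 on the log2 scale in knockout and by 3.82, 7.28 and 5.09 in wild type, the largest adjusted p among the 6 differences being 3.54e-06 by limma.

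For the gamma markers, the probe sets of a gene disagreed. Esrrg encodes an orphan nuclear receptor whose protein is high in gamma motoneurons of the mouse, and its 3 probe sets lie on chromosome 1. The brightest read 12.71, 12.39 and 12.74 in knockout motoneurons and 13.12, 13.30 and 12.55 in wild type motoneurons, against 6.30 to 7.42 in knockout nerve and 6.70 to 7.97 in wild type nerve. The second read 7.09, 7.44 and 6.24 in knockout motoneurons and 6.22, 5.39 and 6.18 in wild type motoneurons, so all knockout values lay above all wild type values, the nearest by a narrow margin. The third probe set was dim on all arrays, at most 4.03 in knockout and 4.27 in wild type motoneurons and at most 3.57 in knockout and 3.37 in wild type nerve. The difference between motoneurons and nerve was 5.68 (SE 0.27) in knockout and 5.70 (SE 0.34) in wild type for the brightest probe set (adjusted p = 1.56e-07 and 1.80e-06 by limma). For the second it was 1.91 (SE 0.30) in knockout and 0.90 (SE 0.25) in wild type. The third differed by 0.21 in knockout (adjusted p = 0.392 by limma) and by 0.53 in wild type (adjusted p = 0.0465), a call that 4 of the 6 fits without one array lost.

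Htr1d encodes a serotonin receptor of the inhibitory G-protein class and is found in gamma motoneurons of the mouse. Its first probe set (chromosome 4) read 7.29, 7.68 and 7.03 in knockout motoneurons and 7.88, 7.66 and 8.30 in wild type motoneurons, where only the knockout value of replicate 2 and the lowest wild type value overlapped. In nerve it read between 5.39 and 6.05 in knockout and between 5.61 and 6.22 in wild type. The third probe set had a wider gap between tissues, at 6.66 to 7.34 in knockout and 6.95 to 7.61 in wild type motoneurons, against 3.11 to 3.60 in knockout and 2.83 to 4.29 in wild type nerve. The second was lower in motoneurons than in nerve by 0.60 in knockout (adjusted p = 0.0299 by limma) and by 0.63 in wild type (adjusted p = 0.00869). In knockout the call was lost in 4 of the 6 fits without one array, with adjusted p between 0.0631 and 0.101 by limma: those without replicate 1 or 3 of either tissue. Scaling decided that direction, since it became 1.18 higher in knockout and 1.13 higher in wild type motoneurons once arrays were centred on their medians.

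Wnt7a, a secreted Wnt ligand reported in gamma motoneurons, was only moderately bright. Its first probe set (chromosome 6) read 7.56, 7.77 and 7.42 in knockout motoneurons and 7.99, 7.23 and 7.62 in wild type motoneurons, against 6.47, 6.44 and 6.61 in knockout nerve and 6.67, 6.69 and 6.73 in wild type nerve. It was higher in motoneurons by 1.08 (SE 0.19) in knockout and by 0.92 (SE 0.22) in wild type (adjusted p = 0.000629 and 0.00514 by limma). The other two probe sets stayed between 2.44 and 4.39 on knockout and between 2.58 and 4.22 on wild type motoneuron arrays. Both were lower in motoneurons than in nerve on the deposited scale and higher after centring.

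Chodl and Calcb mark fast motoneurons and were far higher in motoneurons than in nerve in both genotypes. Chodl encodes a membrane protein of the C-type lectin family, and its single probe set (chromosome 16) read 13.85, 14.11 and 13.78 in knockout motoneurons and 13.84, 13.97 and 14.21 in wild type motoneurons. In nerve it read 5.25, 4.86 and 5.59 in knockout and 7.70, 5.98 and 6.36 in wild type. On motoneuron arrays it lay between percentiles 98.3 and 99.2, and on nerve arrays between 13.3 and 43.5. The difference between motoneurons and nerve was 8.68 (SE 0.20) in knockout and 7.33 (SE 0.41) in wild type, with adjusted p of 5.55e-09 and 1.29e-06 by limma. Calcb encodes the beta form of calcitonin gene-related peptide, a vasodilator neuropeptide that motoneurons release at the muscle. Its single probe set (chromosome 7) read 13.87, 14.10 and 13.83 in knockout motoneurons and 13.98, 13.98 and 14.17 in wild type motoneurons. In nerve it read 6.06, 5.26 and 5.57 in knockout and 4.94, 6.65 and 5.44 in wild type. The difference was 8.30 (SE 0.21) in knockout and 8.36 (SE 0.39) in wild type (adjusted p = 7.22e-09 and 5.81e-07 by limma).

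Mmp9 behaved otherwise, being bright in both tissues. Its first probe set (chromosome 2) read 12.39, 12.87 and 12.37 in knockout motoneurons and 12.32, 12.46 and 13.18 in wild type motoneurons, against 10.60, 11.54 and 10.86 in knockout nerve and 10.84, 10.95 and 10.05 in wild type nerve. Its second read 11.01 to 11.97 in knockout and 10.75 to 11.75 in wild type motoneurons, against 10.47 to 11.18 in knockout and 10.19 to 10.55 in wild type nerve. The 2 Mmp9 probe sets were the only ones of the 19 above the array median on all 6 nerve arrays, between percentiles 67.8 and 81.7, a position that 46.3% of all probe sets reached. The first was higher in motoneurons by 1.54 (SE 0.24) in knockout and 2.04 (SE 0.30) in wild type. The second was higher by 0.83 (SE 0.25) in wild type (adjusted p = 0.0156 by limma), and its difference of 0.61 (SE 0.26) in knockout missed the threshold (adjusted p = 0.0571). Without wild type nerve replicate 3 the wild type call was lost too, at 0.72 and an adjusted p of 0.0521 by limma, while the knockout difference passed without knockout nerve replicate 2 (0.80, adjusted p = 0.0247) or knockout motoneuron replicate 3 (0.81, adjusted p = 0.0281). Neutrophils and macrophages also make Mmp9. The mean over 8 neutrophil genes was 7.28, 6.94 and 6.17 in knockout nerve and 6.97, 7.22 and 6.81 in wild type nerve, and lay between 4.27 and 4.64 on knockout and between 4.27 and 4.52 on wild type motoneuron arrays. That of 8 microglia and macrophage genes lay between 11.75 and 12.10 on knockout and between 11.59 and 12.24 on wild type nerve arrays, and between 7.03 and 7.39 on knockout and between 6.85 and 7.41 on wild type motoneuron arrays. Their part in the nerve values of Mmp9 was not tested.

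Esrrb, an orphan nuclear receptor related to Esrrg and a marker of slow motoneurons, had 1 bright and 2 dim probe sets on chromosome 12. The bright one read 10.04, 9.81 and 10.25 in knockout motoneurons and 10.32, 10.37 and 9.74 in wild type motoneurons, against 4.80, 4.61 and 4.60 in knockout nerve and 5.27, 5.08 and 4.93 in wild type nerve. The nerve genotypes did not overlap, and the motoneuron genotypes did. It was higher in motoneurons by 5.36 (SE 0.20) in knockout and 5.05 (SE 0.23) in wild type (adjusted p = 3.98e-08 and 4.72e-07 by limma). Probe set 2 read 5.75, 5.75 and 5.81 in knockout and 5.87, 6.00 and 5.82 in wild type motoneurons, which did not overlap but differed by only -0.13 (SE 0.17), and it was higher in motoneurons than in nerve by 0.76 in knockout and 0.79 in wild type. Probe set 3 of this gene went the other way, lower in motoneurons by 1.26 in knockout and 1.24 in wild type, and this turned to 0.52 higher in both genotypes after centring. The span between the probe sets of Esrrb in the wild type tissue difference, 6.30, was the widest among the 6 genes with several probe sets, ahead of Esrrg with 5.17 and Htr1d with 4.23. The narrowest was that of Mmp9, 1.20.

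Counted together, 13 of the 19 probe sets were higher and 4 lower in knockout motoneurons than in knockout nerve, where 15.2% and 67.5% of all probe sets were called higher and lower, 82.7% in all. In wild type 15 were higher and 4 lower, beside 14.3% and 67.9% of all probe sets and 82.1% in all. Their median difference was 1.54 in knockout and 2.04 in wild type, beside -1.04 and -1.09 for all probe sets. Differences over 5 on the log2 scale were found for 6 of the 19 in knockout, where 1.03% of all probe sets passed both limits, and for 6 of the 19 in wild type, where 1.06% did. These were Rbfox3 (probe sets 2 and 3), Esrrg (1), Chodl, Calcb and Esrrb (1) in both genotypes.

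The scale chosen for the tissues moved these counts. Of all probe sets called, 18.4% in knockout and 17.4% in wild type were higher in motoneurons on the deposited scale, against 54.7% and 54.6% when all arrays of the comparison were quantile normalized together and 69.5% and 69.0% when each was centred on its median. The median of all probe sets moved to 0.16 and 0.15 under quantile normalization and to 0.74 and 0.67 under centring, in knockout and wild type. With quantile normalization 17 of the 19 probe sets were higher in knockout motoneurons (40.5% of all) and 16 in wild type motoneurons (39.6% of all), and 0 were lower in either. With centring all 19 were higher in knockout (56.6% of all) and in wild type (54.9% of all). Within arrays, 12 of the 19 probe sets lay above the array median on all 6 motoneuron arrays, where 45.8% of all probe sets did.

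**Figure D2:**
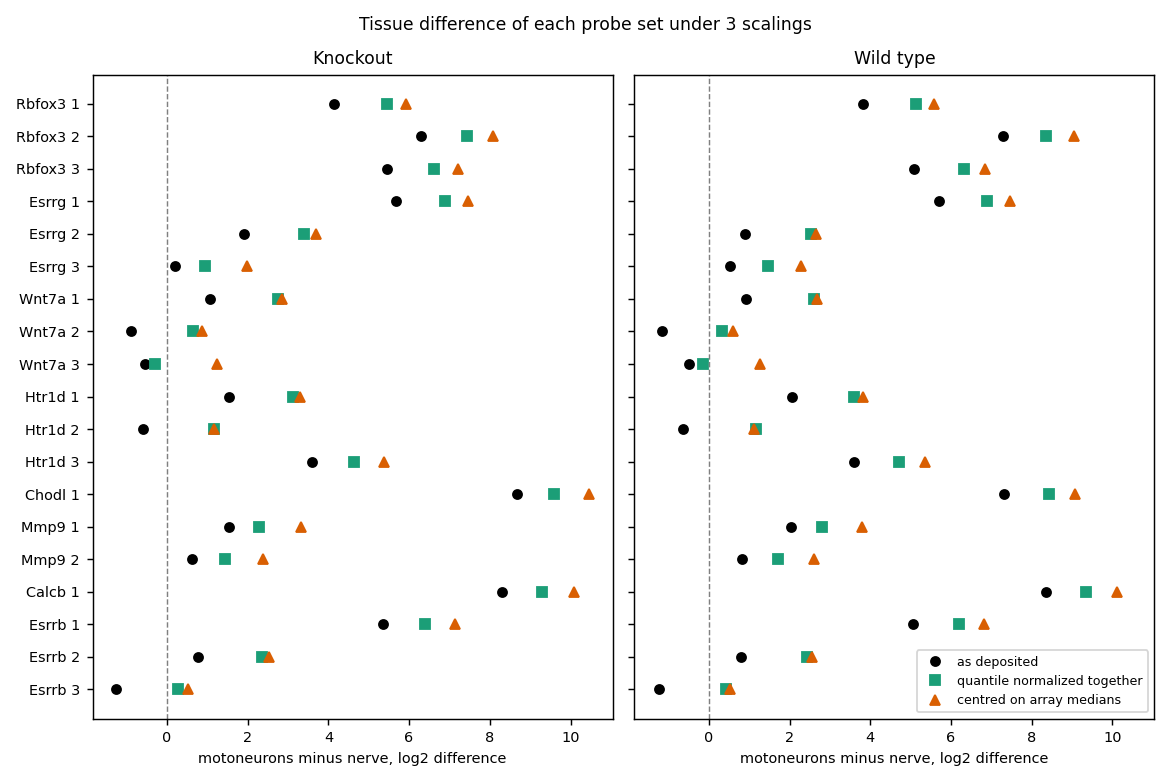
Log2 difference of motoneurons minus nerve (horizontal axis) for each probe set in knockout (left) and wild type (right), on the deposited scale, after quantile normalization of the arrays together and after centring arrays on their medians. The 4 probe sets left of 0 on the deposited scale are Wnt7a 2 and 3, Htr1d 2 and Esrrb 3, and Wnt7a 3 alone stays left of 0 after quantile normalization.

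Between genotypes in motoneurons, 0 of the 19 probe sets passed, and 0% of all probe sets did (limma, adjusted p under 0.05). Unadjusted p lay under 0.05 for 3 of the 19, beside 17% of all probe sets, and the groups did not overlap for 4 of the 19, beside 22.5% of all. These shares are near or below the background. The differences were positive for 6 and negative for 13, with a median of -0.10, beside 0.04 over all probe sets. The smallest unadjusted p belonged to Rbfox3 probe set 1, which differed by 0.39 (SE 0.11, adjusted p = 0.161 by limma), while probe set 2 of the gene differed by -0.10 (SE 0.11) and probe set 3 by 0.41 (SE 0.20). The second Esrrg probe set differed by 0.99 (SE 0.37, adjusted p = 0.235) and the brightest by -0.38 (SE 0.19, adjusted p = 0.357), opposite in sign. Htr1d probe set 1 differed by -0.61 (SE 0.26, adjusted p = 0.282 by limma), and its other two by 0.02 and -0.22. Wnt7a differed by -0.03, 0.39 and -0.04 in its 3 probe sets.

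For the fast and slow markers no difference between genotypes was detected in motoneurons. Chodl differed by -0.09 with a 95% interval from -0.35 to 0.17, Calcb by -0.11 with an interval from -0.30 to 0.09, and the bright Esrrb probe set by -0.11 with an interval from -0.59 to 0.37. For Mmp9 the differences were -0.11 and 0.14, with intervals from -0.65 to 0.43 and from -0.58 to 0.85. By class, the median difference was 0.39 over 3 alpha probe sets (1 gene) and -0.04 over 9 gamma probe sets (3 genes). It was -0.10 over 4 fast probe sets (3 genes) and -0.11 over 3 slow probe sets (1 gene). These medians include the dim probe sets, and probe sets of the same gene are not separate markers. No class had a call.

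The calls in motoneurons depended on the arrays and on the fit used. Wild type replicate 3 resembled the knockout arrays (mean Pearson r of 0.989 over all probe sets) slightly more than the other wild type arrays (0.987). Without it, 3 of the 19 probe sets passed, beside 10.3% of all probe sets: Rbfox3 1 by 0.48 (adjusted p = 0.0274 by limma), Rbfox3 3 by 0.66 (adjusted p = 0.00857) and Esrrg 1 by -0.60 (adjusted p = 0.0197). With limma's array weights and no array left out, 1 of the 19 passed, beside 6.5% of all probe sets, namely Rbfox3 1 by 0.40 (adjusted p = 0.0469). The mean of the 6 spinal interneuron genes was 10.18 on wild type replicate 3, against 11.08 and 11.02 on the other wild type arrays. In knockout it was 10.96, 10.23 and 11.12. Esrrg probe set 1 was lowest in its group on the same arrays, wild type replicate 3 and knockout replicate 2. Esrrb probe set 1 (9.74 and 9.81) and the dim Wnt7a probe set 3 were lowest there too. Chodl, Calcb, both Mmp9 probe sets, Rbfox3 1 and 2 and Htr1d 1 and 2 were highest in their group there. No other member probe set was lowest on both or highest on both. The mean of the 8 motoneuron markers was also highest there, at 11.41 and 11.37. The part of interneurons or of the subtype mix in the calls was not tested. Whether wild type replicate 3 is a poorer or a typical sample of its group was not tested.

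**Figure D3:**
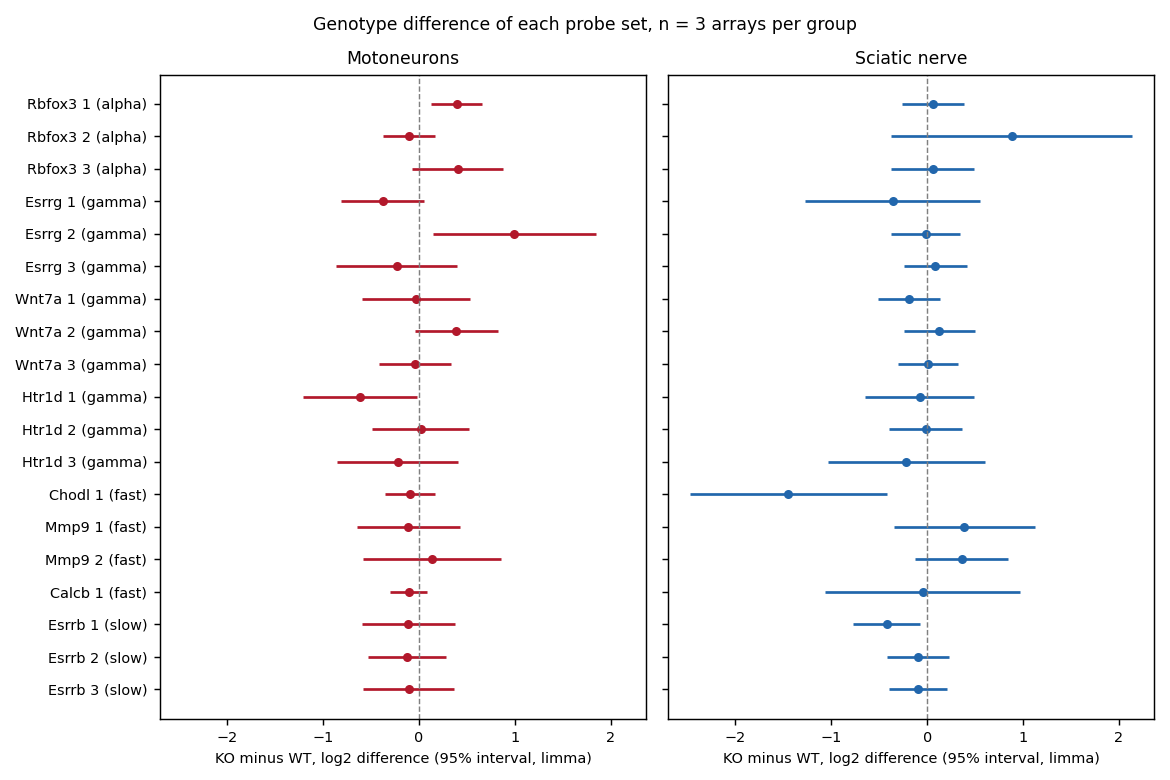
Log2 difference of knockout minus wild type (horizontal axis) in motoneurons (left) and sciatic nerve (right) for each of the 19 probe sets, with 95% intervals from limma and n = 3 arrays per group. No probe set passed after adjustment in either tissue. The intervals of Rbfox3 1, Esrrg 2 and Htr1d 1 in motoneurons and of Chodl and Esrrb 1 in nerve leave out 0.

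In nerve, 0 of the 19 probe sets differed between genotypes after adjustment, and 0% of all did, with every member at an adjusted p of 0.99996 by limma. Unadjusted p lay under 0.05 for 2 of the 19, beside 2.31% of all probe sets. The groups did not overlap for 4 of the 19, beside 7.26% of all, and all 4 were lower in knockout, which 3.67% of all probe sets were. Both shares of the members lie above these backgrounds, on small counts to which Esrrb gives 2 probe sets. The 4 were Chodl, Wnt7a probe set 1 and Esrrb probe sets 1 and 3. Chodl differed by -1.45 (SE 0.44, unadjusted p = 0.0122), Esrrb probe set 1 by -0.42 (SE 0.15, unadjusted p = 0.0252) and Wnt7a probe set 1 by -0.18 (SE 0.14). All of these read below the array median in nerve. Mmp9 differed by 0.39 (SE 0.31) and 0.36 (SE 0.21), with overlap in both probe sets.

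Chodl was also among the most variable probe sets in nerve. Its SD over the 6 nerve arrays, which takes in the difference between genotypes, exceeded that of 99.1% of all probe sets. Within groups its SD was 0.36 in knockout and 0.91 in wild type nerve. Over the 6 nerve arrays the SDs of Rbfox3 probe set 2, Calcb and the brightest Esrrg probe set exceeded those of 98.9%, 96.4% and 95.7%. Over the 6 motoneuron arrays the same share was 24.1% for Chodl and 13.2% for Calcb. The mean over 8 skeletal muscle genes, measured on the same nerve arrays, was 10.69, 9.57 and 10.43 in knockout and 13.67, 7.92 and 12.41 in wild type. Wild type replicate 1 was highest in that mean, in Chodl and in Esrrg probe set 1, while wild type replicate 2 was lowest in muscle genes but above all knockout arrays in Chodl. Without wild type replicate 1 the Chodl difference was -0.93. The mean over 6 spinal interneuron genes was 5.68, 4.67 and 4.55 in knockout nerve and 4.61, 4.45 and 4.47 in wild type nerve, and knockout replicate 1 was highest both in it and in Rbfox3 probe set 2. Without that array the difference of Rbfox3 probe set 2 was 0.26, against 0.88 (SE 0.54) with it. The part of muscle or neuronal RNA in these values was not tested.

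**Figure D4:**
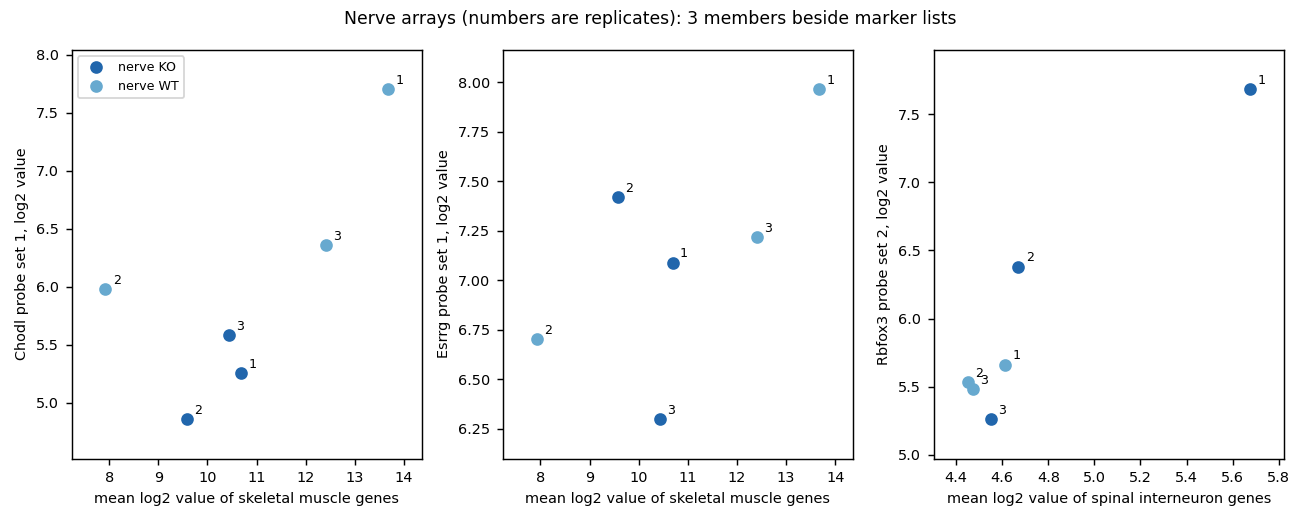
Log2 value on each nerve array (vertical axes) of Chodl, of Esrrg probe set 1 and of Rbfox3 probe set 2, against the mean log2 value of 8 skeletal muscle genes (left and middle) or 6 spinal interneuron genes (right) on the same array. Colours mark knockout and wild type, and numbers are replicates. Wild type replicate 1 is highest on both axes in the first 2 panels, and knockout replicate 1 in the third.

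The genotype effects of motoneurons and nerve were compared by an interaction over all 12 arrays. It gave 0 calls among the 19 and 0% among all probe sets, with unadjusted p under 0.05 for 2 of the 19, beside 7.54% of all. Chodl had the largest value, 1.35 (SE 0.49, adjusted p = 0.629 by limma), followed by Esrrg probe set 2 at 1.01 (SE 0.42, adjusted p = 0.645), where a positive value means that knockout minus wild type was higher in motoneurons. The values of the 19 ran from -0.99, for Rbfox3 probe set 2, to 1.35.

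Beyond the 8 genes, 18 further reported markers of motoneuron subtypes or of vulnerability were read, each by its brightest probe set. None passed between genotypes in motoneurons, where 7 values were positive and 11 negative with a median of -0.11. The smallest unadjusted p belonged to Epha4, a receptor tyrosine kinase of axon guidance that modifies disease course in models of motoneuron disease, which averaged 10.02 ± 0.062 in knockout and 11.09 ± 0.56 in wild type motoneurons (SD, n = 3 each) and differed by -1.07 (SE 0.26, adjusted p = 0.130 by limma). Stxbp6, a syntaxin-binding protein, came next at 10.72 ± 0.21 in knockout and 11.30 ± 0.30 in wild type motoneurons (adjusted p = 0.180), then Plch1, a phospholipase C, and Htr1f, a serotonin receptor related to Htr1d, with differences of -0.24 and 0.52. 2 of the 18 had an unadjusted p under 0.05, beside 17% of all probe sets. Without wild type replicate 3, 2 of the 18 were called lower and 0 higher, beside 10.3% of all probe sets called in either direction. Of the 4646 probe sets called there, 2107 were higher in knockout. In nerve 0 of the 18 passed, Npas1 having the smallest unadjusted p with a difference of -0.34.

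Between tissues the same list divided. In knockout 10 of the 18 were higher and 6 lower in motoneurons, and in wild type 9 were higher and 6 lower. Of all probe sets, 15.2% were called higher and 67.5% lower in knockout, and 14.3% and 67.9% in wild type. The synaptic vesicle protein Sv2a, reported in slow motoneurons, was higher by 6.03 (SE 0.29) in knockout and 6.04 (SE 0.27) in wild type, and the potassium channel Kcnq5 by 2.21 (SE 0.13) in wild type. Igf2, a growth factor linked to resistant motoneurons, was lower by 7.60 (SE 0.24) in knockout and 7.12 (SE 0.36) in wild type, and the polarity protein Pard3b by 4.68 and 4.48. After centring, 13 were higher and 4 lower in knockout and 12 higher and 2 lower in wild type. With that scaling 56.6% of all probe sets were called higher in knockout and 54.9% in wild type. Of the 45037 tested, 11188 were called lower in knockout and 11106 in wild type.

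**Figure D5:**
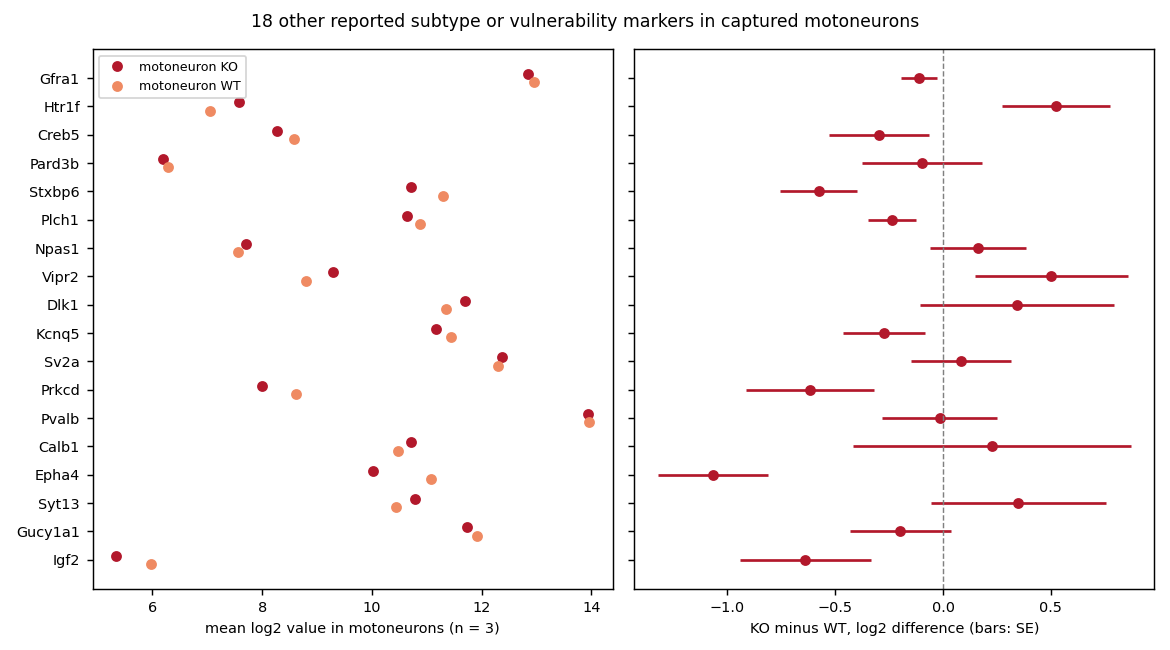
Mean log2 value in knockout and wild type motoneurons (left, n = 3 arrays each) and difference of knockout minus wild type with its standard error (right) for 18 other reported subtype or vulnerability markers. Epha4 lies farthest from 0, at -1.07, and no gene passed after adjustment.

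A further list held 33 genes that act with any of the 10 genes, the unmeasured Spp1 and Calca included. It took in frizzled receptors of Wnt ligands, tissue inhibitors of metalloproteinases and integrins, and 32 of its genes were measured. None passed between genotypes in motoneurons, where 16 values were positive and 16 negative and 6 had an unadjusted p under 0.05, close to the 17% of all probe sets. Itga9, the integrin alpha 9 subunit, had the largest difference, averaging 8.84 ± 0.48 in knockout and 6.52 ± 0.31 in wild type motoneurons (SD, n = 3 each), a difference of 2.32 (SE 0.29, adjusted p = 0.0904 by limma). The Wnt receptor Fzd3 averaged 8.19 in knockout and 9.35 in wild type motoneurons, a difference of -1.16 (SE 0.24, adjusted p = 0.118), and Itgav, the integrin alpha V subunit, differed by -0.47 (adjusted p = 0.132). Without wild type replicate 3, 3 of the 32 were called higher and 5 lower, beside 10.3% of all probe sets called either way. In nerve 0 of the 32 passed. Between tissues 8 were higher and 22 lower in knockout motoneurons, and 7 higher and 22 lower in wild type motoneurons, where all probe sets gave 15.2% higher and 67.5% lower in knockout and 14.3% and 67.9% in wild type. Quantile normalization gave 12 higher and 20 lower in both genotypes, and centring 13 higher and 17 lower in knockout and 13 higher and 15 lower in wild type. Of all probe sets, quantile normalization called 40.5% higher in knockout and 39.6% in wild type, and centring 56.6% and 54.9%. Called lower of the 45037 were 15118 in knockout and 14806 in wild type with quantile normalization, and 11188 and 11106 with centring. Mmp2, a gelatinase like Mmp9, was lower in motoneurons by 7.61 (SE 0.15) in knockout and 7.64 (SE 0.19) in wild type, opposite in sign to Mmp9.

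For the brightest probe set of each marker, the genes with the most similar probe set over the 12 arrays were found by Pearson r. Only probe sets with a mean above the median of all were searched, and any such probe set of a gene could be taken. All arrays of a tissue share the large step between tissues, which sets most of each r. For Chodl these were Pcp4 (r = 0.998), a calmodulin-binding peptide of neurons, and Kcnc4 (r = 0.997), a voltage-gated potassium channel. For Rbfox3 they were Asphd1 and Caly, for Esrrg Dner and Septin6, for Calcb Pcbp3 and Pip5kl1, and for Esrrb Lingo3 and Atp2b3, the last of them a calcium pump of the plasma membrane. Their r lay between 0.996 and 0.999. For the markers with smaller steps r was lower, at 0.981 for Mmp9 with Cyb561 and 0.980 with Trim16, 0.983 for Htr1d with Sphkap and 0.978 with Prima1, and 0.974 for Wnt7a with 9530036O11Rik and 0.966 with Pou3f2.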

How the data were processed

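Biotin-labelled product amplified from 20 ng of total RNA was hybridised to 12 Affymetrix arrays, 3 in each of the 4 groups, per the labels' protocols, with a different RNA column kit for each tissue. The authors deposited log2 values per probe set, made with Affymetrix Expression Console 1.1 per the submitters' processing notes. That they are log2 was inferred from their range. Summarization, background correction and build were not given in the sources used here. The number of arrays, 3 per group, limits the precision.

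Of 45101 probe sets, 64 controls were left out and 45037 tested. The platform annotation gave 34945 probe sets 1 symbol, 932 several and 9160 none. Symbols were updated by gene identifier through RefSeq (GRCm38.p6), which matched 34741. Probe sets of a gene are numbered by their mean over 12 arrays. List genes were read by their brightest probe set, 128 of 139 being measured.

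Each of 5 comparisons was fitted across all probe sets with limma 3.58.1 in R 4.3.3 (lmFit, eBayes with a mean trend, two-sided, Benjamini-Hochberg adjustment over all probe sets at 0.05). Genotype and tissue comparisons used the 6 arrays of their groups, and the interaction all 12. The fits were tested on simulated data with known changes in 100 of 45037 probe sets. Of changes of 1 on the log2 scale, 44% were recovered between motoneuron genotypes, 40% between nerve genotypes and 19% between wild type tissues. Of changes of 2, 96%, 96% and 97% were recovered. In the data 82.1% of all probe sets were called between wild type tissues, far more than the 100 changed in the simulation. The adjusted threshold is looser there, so the 19% and 97% do not measure what that comparison could detect.

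The members, their classes, the lists and the tests were chosen with earlier results of these data known. Every member probe set is named. Other genes are named by a rule: up to 4 per list and comparison by smallest unadjusted p, cell type markers, and the 2 genes most like each member. Slc18a3, Nefh and Chat were named from the motoneuron list as defining markers. Alternatives covered scaling, dim probe sets, array weights, the prior variance, all arrays in 1 fit, gene means, Xist as a covariate, replicate number as a block and each array left out. Promoter windows and figures were made with Python 3.11.15 and matplotlib 3.10.9.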

Additional observations from a re-analysis of the deposited data

How the results depend on the processing

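Of 267 recomputed values of the genotype difference in motoneurons, 239 kept their direction and side of the threshold, 4 passed anew and 24 changed sign. In nerve 236 of 257 were kept and 21 changed sign, in the interaction 38 of 38 were kept, between knockout tissues 222 of 244 were kept, with 6 calls lost, 7 gained and 9 sign changes, and between wild type tissues 229 of 245 were kept, with 8 calls lost and 8 sign changes. The count of members called in motoneurons was 0 as reported, 1 with array weights and 0 to 3 with 1 array left out, highest without wild type replicate 3. Over all probe sets that comparison called 0 as reported, 828 when all 12 arrays shared a fit, 61 when dim probe sets were left out, 2929 with array weights and 4646 without wild type replicate 3. Among brighter probe sets, 7 of 8 members remained called between knockout tissues and 9 of 9 between wild type tissues, fewer probe sets being tested. With 1 array left out the counts were 16 to 18 in knockout and 17 to 19 in wild type.

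Signs that changed belonged to differences that had not passed between genotypes. In motoneurons the Xist covariate gave 0.036 for Esrrb 1, -0.21 for Htr1d 2, -0.28 for Mmp9 2 and 0.14 for Wnt7a 3, gene means gave 0.13 for Esrrg, 0.013 for Mmp9 and 0.11 for Wnt7a, centring gave -0.00689 for Htr1d 2, and array weights gave -0.00921 for Htr1d 2 and 0.010 for Wnt7a 3. In nerve array weights gave 0.21 for Calcb, 0.0064 for Esrrg 2 and 0.016 for Htr1d 2, quantile normalization gave 0.029 for Esrrg 2 and 0.00441 for Htr1d 2, and centring gave -0.032 for Wnt7a 3. Between knockout tissues quantile normalization gave 0.27 for Esrrb 3, 1.17 for Htr1d 2 and 0.64 for Wnt7a 2, centring 0.52, 1.18 and 0.87 for the same and 1.23 for Wnt7a 3, and the gene mean -0.12 for Wnt7a. Between wild type tissues quantile normalization gave 0.41, 1.16 and 0.33, centring 0.52, 1.13 and 0.60 for the same 3 and 1.26 for Wnt7a 3, and the gene mean -0.25 for Wnt7a. The cause of the sign changes between genotypes was not tested.

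With 1 array left out, the genotype difference in motoneurons ranged from -0.19 to 0.0097 for Chodl, from -0.31 to 0.0040 for Esrrb 1, from -0.23 to 0.034 for Esrrb 3, from -0.46 to 0.0074 for Esrrg 3, from -0.15 to 0.19 for Htr1d 2, from -0.28 to 0.15 for Mmp9 1, from -0.15 to 0.38 for Mmp9 2, from -0.22 to 0.16 for Wnt7a 1 and from -0.15 to 0.089 for Wnt7a 3. In nerve it ranged from -0.42 to 0.44 for Calcb, from -0.10 to 0.087 for Esrrg 2, from -0.018 to 0.14 for Esrrg 3, from -0.22 to 0.13 for Htr1d 1, from -0.11 to 0.10 for Htr1d 2, from -0.59 to 0.13 for Htr1d 3, from -0.081 to 0.16 for Rbfox3 3 and from -0.068 to 0.070 for Wnt7a 3. Between knockout tissues Esrrg 3 ranged from -0.020 to 0.34.

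Same-numbered samples did not deviate together in every pair (r from -0.079 to 0.090 between motoneuron genotypes, 0.026 to 0.31 between nerve genotypes, -0.037 to 0.050 between knockout tissues and -0.053 to 0.017 between wild type tissues), so the numbers were not read as pairs. With the replicate number as a block, 0 members were called between genotypes in motoneurons or nerve and in the interaction, 17 between knockout tissues and 18 between wild type tissues. Between knockout tissues the block lost Htr1d 2 (adjusted p = 0.0533 by limma) and gained Mmp9 2 (0.00469), and between wild type tissues it lost Esrrg 3 (0.0520). Unadjusted p lay under 0.05 for 1758 probe sets in nerve, against 1040 without it. With 3 arrays a group, differences in subtype markers of 1 on the log2 scale or less may not have been detectable, and no measure of signal over background was used.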
